A study of Homo sapiens with 4 samples.

Results

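The genes described here encode P-TEFb (positive transcription elongation factor b), the proteins that hold it inactive on 7SK RNA, and cyclin K. They are HEXIM1, HEXIM2, LARP7, MEPCE, CDK9, CCNT1, CCNT2 and CCNK. They were found by symbol alone, as 8 of the 41507 genes of the gene table, with 28 of the 67765 transcripts of the transcript table. All 8 had a mean of at least 1 RPKM over the 8 libraries, as did 9521 genes in all. RPKM is a read number divided by the length of the gene and by the size of the library.

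P-TEFb is a kinase, CDK9, with a regulatory cyclin, cyclin T1 or cyclin T2. It phosphorylates RNA polymerase II and the factors that hold the polymerase paused near the start of a gene, and so allows elongation. Much of the P-TEFb in a cell is kept inactive in a ribonucleoprotein built on 7SK RNA, where HEXIM1 or HEXIM2 blocks the kinase, LARP7 binds the end of 7SK and MEPCE caps its beginning. HEXIM1 mRNA is widely used as a marker of BET inhibition. Cyclin K pairs with CDK12 and CDK13, which phosphorylate the polymerase further along the gene.

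SU-DHL-5 and Toledo are established cell lines from human diffuse large B-cell lymphoma. Each line was treated with DMSO, the vehicle, or with JQ1, a small molecule that keeps BET proteins off acetylated histones, at 1 µM. The labels give 6 h of treatment and a legend of the study gives 8 h. Each of the 4 conditions is 1 sample (n = 1) with 2 libraries, and the sources used here do not say what separates the 2 libraries of a sample. They are shown each, and their mean is used. The design thus allows no test between conditions, and the spread shown is that between libraries. The labels describe the cells as B lymphocytes and name no genetic change and no further agent.

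The libraries held 14617583 to 17679831 mapped reads, recovered from the RPKM values. All 8 B-cell markers examined had a mean of at least 1 RPKM. None of 6 T-cell and NK-cell markers, 6 myeloid markers or 6 epithelial and fibroblast markers did. The summed level of the T-cell and NK-cell markers was at most 1.54 RPKM in any library, that of the myeloid markers at most 1.36 RPKM and that of the epithelial and fibroblast markers at most 2.73 RPKM. The B-cell markers summed to 902 to 1017 RPKM with DMSO and 623 to 655 RPKM with JQ1, and the part of this difference in the results below was not tested. CD2, EPCAM, KRT8 and MPO, from these lists, were at 0 in all 8 libraries. Other markers of the same lists passed 1 RPKM with DMSO, in 1 library (CD3E) or in both libraries of a line (LYZ and COL1A1). In SU-DHL-5, CD3E stood at 1.09 and 0.934 RPKM and LYZ at 1.09 and 1.20 RPKM with DMSO. In Toledo, COL1A1 stood at 2.29 and 2.72 RPKM with DMSO. In bulk RNA, fewer cells of a type and less RNA per cell cannot be told apart, and this holds for every comparison below.

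HEXIM1 and HEXIM2 are neighbours on chromosome 17 and on the same strand. The files place HEXIM1 at chr17:45147317-45152101 and HEXIM2 at chr17:45159335-45170039 (GRCh38, plus strand), with 7233 bases between them. The sequences before their starts are shown because these 2 inhibitor genes lay next to each other and differed in opposite directions with JQ1. They are from RefSeq on GRCh38.p14, written 5′ to 3′ on the plus strand. The HEXIM1 window ends before the first exon base of HEXIM1 in GENCODE v29. The HEXIM2 window ends before 45161831, the HEXIM2 transcript start with most DMSO reads. HEXIM2 transcripts that begin further upstream span the HEXIM2 window, and whether it holds exon bases of these is not shown. In GENCODE v29, the HEXIM1 window overlaps an exon of AC142472.1 on the opposite strand. Capitals mark matches on either strand to a TATA box with the letters TATAAA, to the letters of a CCAAT box, to a GC box with the letters GGGCGG or to an E-box with the letters CACGTG, none of which overlap one another.
HEXIM1, chr17:45148225-45148474: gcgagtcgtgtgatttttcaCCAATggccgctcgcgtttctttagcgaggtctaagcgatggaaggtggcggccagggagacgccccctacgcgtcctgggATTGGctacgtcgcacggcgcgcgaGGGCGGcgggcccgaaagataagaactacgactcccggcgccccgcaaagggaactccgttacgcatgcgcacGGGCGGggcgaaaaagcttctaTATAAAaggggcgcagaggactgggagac
HEXIM2, chr17:45161625-45161830: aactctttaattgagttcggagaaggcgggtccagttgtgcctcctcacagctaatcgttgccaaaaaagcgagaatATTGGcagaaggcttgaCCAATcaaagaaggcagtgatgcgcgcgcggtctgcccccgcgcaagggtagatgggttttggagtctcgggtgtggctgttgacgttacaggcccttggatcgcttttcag

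The HEXIM1 window of 250 bases held 1 TATA box, 29 bases before the RefSeq start, with 2 CCAAT boxes and 2 GC boxes. Of 35116 RefSeq promoter windows cut to the same 250 bases, 10.7% held a TATA box, 32.0% a CCAAT box, 42.6% a GC box and 6.34% an E-box. The HEXIM2 window of 206 bases held 2 CCAAT boxes and no match to the other 3 motifs. At that length, 28.3% of windows held a CCAAT box, 7.77% a TATA box, 36.2% a GC box and 4.76% an E-box. The HEXIM2 window ends at 45161830, before the RefSeq start of HEXIM2 at 45161875, and the windows of that length were cut alike. A TATA box as close to the RefSeq start as that of HEXIM1 would fall outside them, so its absence at HEXIM2 is not shown. GC content was 62.4% for HEXIM1 and 53.4% for HEXIM2. These matches describe letters only. The file's HEXIM1 model begins upstream of the RefSeq start at 45148475, so the HEXIM1 window lies inside the region in which its reads were counted.

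HEXIM1, the inhibitor that blocks CDK9 within the 7SK complex, had the largest difference of the 8 genes. In SU-DHL-5 its level was 4.35 and 3.89 RPKM with DMSO, and 22.4 and 22.9 RPKM with JQ1. In Toledo it was 4.04 and 3.94 RPKM with DMSO, and 23.9 and 24.5 RPKM with JQ1. The groups did not overlap in either line, and the 2 libraries of each sample lay close together. JQ1 over DMSO was 5.39-fold in SU-DHL-5 (log2 ratio of 2.43) and 5.95-fold in Toledo (log2 ratio of 2.57). These ratios were computed after adding 0.1 RPKM to each mean. They rest on 643 reads with DMSO and 3372 with JQ1 in SU-DHL-5 cells, and on 648 and 3755 reads in Toledo cells. The 95% interval from counting error alone was 5.06 to 6.00-fold in SU-DHL-5 cells and 5.58 to 6.60-fold in Toledo cells.

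HEXIM1 ranked 19 from the top of 9521 genes in SU-DHL-5 cells and 17 in Toledo cells. In all, 67 genes, or 0.704% of those tested, were at least 2-fold higher with JQ1 in both lines. Only 13 genes had a ratio at least as high as that of HEXIM1 in both, and all 13 carried symbols of the HIST clusters, which encode the core and linker histones. Among genes without such a symbol, HEXIM1 ranked 2 in each line.

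HEXIM2, the paralog of HEXIM1 that can take its place in the 7SK complex, was lower with JQ1. Its level in SU-DHL-5 was 4.24 and 4.48 RPKM with DMSO, and 2.35 and 2.42 RPKM with JQ1. In Toledo it was 2.52 and 3.11 RPKM with DMSO, and 1.20 and 1.09 RPKM with JQ1. All JQ1 libraries lay below all DMSO libraries of the same line. JQ1 over DMSO was 0.557-fold in SU-DHL-5 (log2 ratio of -0.84, counting interval 0.464 to 0.641) and 0.429-fold in Toledo (log2 ratio of -1.22, counting interval 0.329 to 0.509). These values rest on far fewer reads than those of HEXIM1, 452 with DMSO and 235 with JQ1 in SU-DHL-5 cells, and 301 and 118 in Toledo cells. HEXIM2 ranked 667 from the bottom of 9521 genes in SU-DHL-5 cells and 481 in Toledo cells, so its place among all genes was less extreme than that of HEXIM1.

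**Figure D1:**
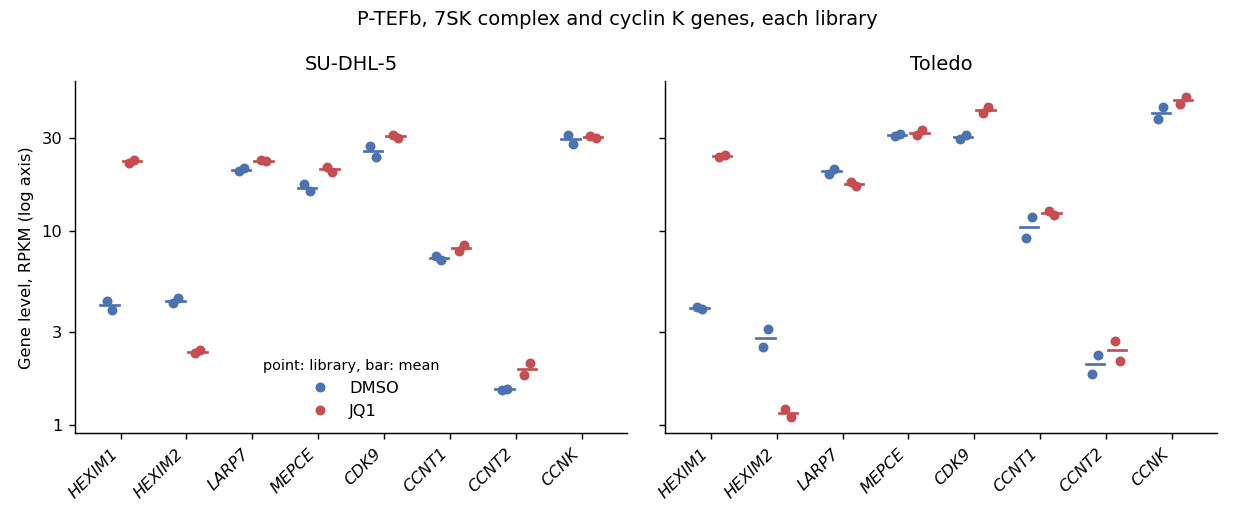
Level of the 8 genes in RPKM (log axis) in SU-DHL-5 (left) and Toledo (right), with DMSO in blue and JQ1 in red. Each point is a library and each short bar the mean of the 2 libraries of a sample. HEXIM1 stands at 4.12 and 3.99 RPKM with DMSO and at 22.7 and 24.2 RPKM with JQ1, and HEXIM2 lies lower with JQ1 in both lines.

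The other genes of the 7SK complex differed less. LARP7 (chr4:112636964-112657592, plus strand), which binds and stabilizes 7SK, had levels of 20.2 and 20.9 RPKM with DMSO and 23.0 and 22.8 RPKM with JQ1 in SU-DHL-5. In Toledo it had 19.5 and 20.8 RPKM with DMSO, and 17.7 and 16.9 RPKM with JQ1. Its libraries did not overlap in either line, and the direction was opposite, with a log2 ratio of 0.15 in SU-DHL-5 cells and -0.22 in Toledo cells. MEPCE (chr7:100428790-100434126, plus strand), the methyltransferase that caps 7SK, had levels of 17.3 and 15.9 RPKM with DMSO and 21.3 and 20.0 RPKM with JQ1 in SU-DHL-5. There the libraries did not overlap, and its log2 ratio was 0.31. In Toledo, MEPCE stood at 30.6 and 31.4 RPKM with DMSO and 31.1 and 32.7 RPKM with JQ1. In that line the libraries overlapped, and the log2 ratio was 0.04 (counting interval -0.03 to 0.11). The 7SK RNA itself, RN7SK, was listed at 0 in all 8 libraries, which were made with an mRNA kit.

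CDK9 (chr9:127786026-127790773, plus strand), the kinase subunit, was higher with JQ1 in both lines. Its level in SU-DHL-5 was 27.4 and 23.9 RPKM with DMSO, and 31.1 and 29.9 RPKM with JQ1. In Toledo it was 29.7 and 30.9 RPKM with DMSO, and 40.2 and 43.0 RPKM with JQ1. The groups did not overlap, although the DMSO libraries of SU-DHL-5 differed from each other beyond counting error. JQ1 over DMSO was 1.19-fold in SU-DHL-5 (counting interval 1.13 to 1.27) and 1.37-fold in Toledo (counting interval 1.30 to 1.45). Without the first DMSO library, the log2 ratio of CDK9 in SU-DHL-5 was 0.35, and without the second it was 0.16, against 0.25 with both.

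The cyclins that bind CDK9 were expressed below it per base of gene. CCNT1 (chr12:48688458-48716998, minus strand), cyclin T1, had levels of 7.37 and 7.05 RPKM with DMSO and 7.88 and 8.40 RPKM with JQ1 in SU-DHL-5, a ratio of 1.13-fold. In Toledo, CCNT1 had 9.20 and 11.7 RPKM with DMSO and 12.7 and 12.0 RPKM with JQ1, a ratio of 1.18-fold. The JQ1 libraries lay above those of DMSO in each line, in Toledo by less than the gap between its DMSO libraries. CCNT2 (chr2:134918794-134959345, plus strand), cyclin T2, had 1.51 and 1.53 RPKM with DMSO and 1.81 and 2.09 RPKM with JQ1 in SU-DHL-5, a ratio of 1.26-fold. In Toledo its libraries overlapped, with 1.83 and 2.28 RPKM for DMSO and 2.71 and 2.14 RPKM for JQ1.

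CCNT1 and CCNT2 are the longest of the 8 genes in the table, with 7079 and 10097 bases. In Toledo the 2 libraries of a sample differed with gene length. The second DMSO library stood above the first by a median log2 ratio of 0.31 over the 1023 genes of at least 7000 bases, and by 0.09 over all 9521. For CCNT1 this difference was 0.35 and for CCNT2 0.32. With JQ1, the second library over the first had a median log2 ratio of -0.12 over the same long genes and -0.03 over all. For CCNT1 the difference with JQ1 was -0.08 and for CCNT2 -0.34. Taken library 1 against library 1, the JQ1 to DMSO log2 ratio of CCNT1 in Toledo was 0.46, and library 2 against library 2 it was 0.04. For CCNT2 the same values were 0.54 and -0.09. Without the first Toledo DMSO library, the log2 ratio of CCNT1 was 0.08, and without the second it was 0.42. Without the first Toledo JQ1 library, that of CCNT2 was 0.06.

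CCNK (chr14:99481366-99511515, plus strand), cyclin K, showed overlapping libraries in SU-DHL-5, with 31.2 and 27.9 RPKM for DMSO and 30.6 and 29.9 RPKM for JQ1. The log2 ratio was 0.03, with a counting interval of -0.04 to 0.12. In Toledo the libraries did not overlap, with 37.4 and 43.4 RPKM for DMSO and 44.7 and 48.6 RPKM for JQ1, a ratio of 1.16-fold. That difference was about as large as the gap between the DMSO libraries. The log2 ratio was 0.10 without the first Toledo DMSO library and 0.32 without the second.

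**Figure D2:**
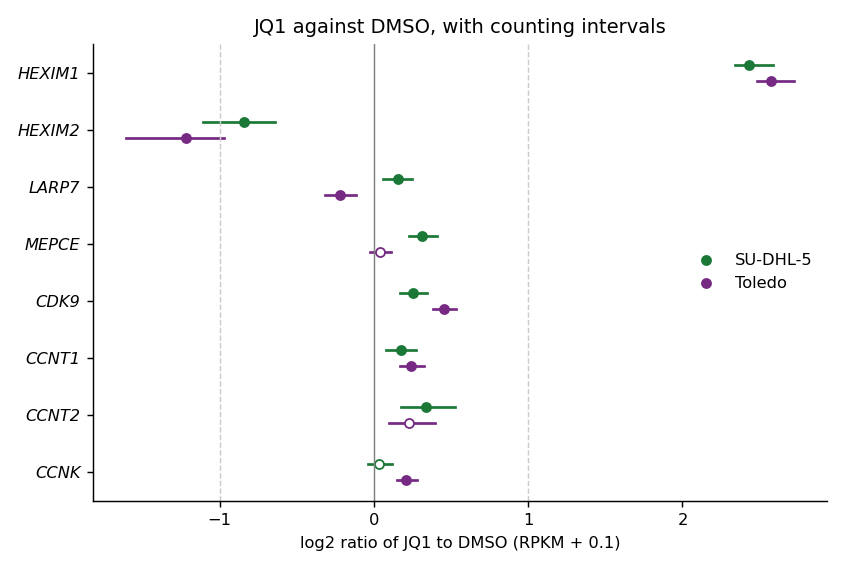
JQ1 to DMSO log2 ratio of the 8 genes on the log2(RPKM + 0.1) scale (horizontal axis), with SU-DHL-5 in green and Toledo in purple. Lines are 95% intervals of counting error, filled points mark genes whose JQ1 and DMSO libraries do not overlap, open points those whose libraries do, and dashed lines stand at 2-fold. HEXIM1 lies past 2-fold higher in both lines, HEXIM2 past 2-fold lower in Toledo, and the other 6 genes lie between.

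A gene is called higher by library order where the lower JQ1 library exceeds the higher DMSO library, and lower in the reverse case. In SU-DHL-5, 6 of the 8 genes were higher by library order, against 41.1% of the 9521 genes, and 1 was lower, against 37.3%. In Toledo, 4 were higher, against 29.3% of genes, and 2 were lower, against 42.9%. Since most genes were ordered one way or the other, the order of libraries alone set these genes little apart. A size of at least 1.5-fold was reached upwards by HEXIM1 alone in each line, against 8.70% of genes in SU-DHL-5 cells and 6.61% in Toledo cells. It was reached downwards by HEXIM2 alone, against 12.0% of genes in SU-DHL-5 cells and 16.1% in Toledo cells. At 2-fold, HEXIM1 was again the 1 gene of the 8 that was higher, against 1.74% of genes in SU-DHL-5 cells and 1.61% in Toledo cells. HEXIM2 was at least 2-fold lower in Toledo, against 6.94% of genes, and none of the 8 was in SU-DHL-5, against 5.44%. The median log2 ratio of the 8 genes was 0.21 in SU-DHL-5 cells and 0.22 in Toledo cells, and that of all 9521 genes was 0.01 and -0.06.

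**Figure D3:**
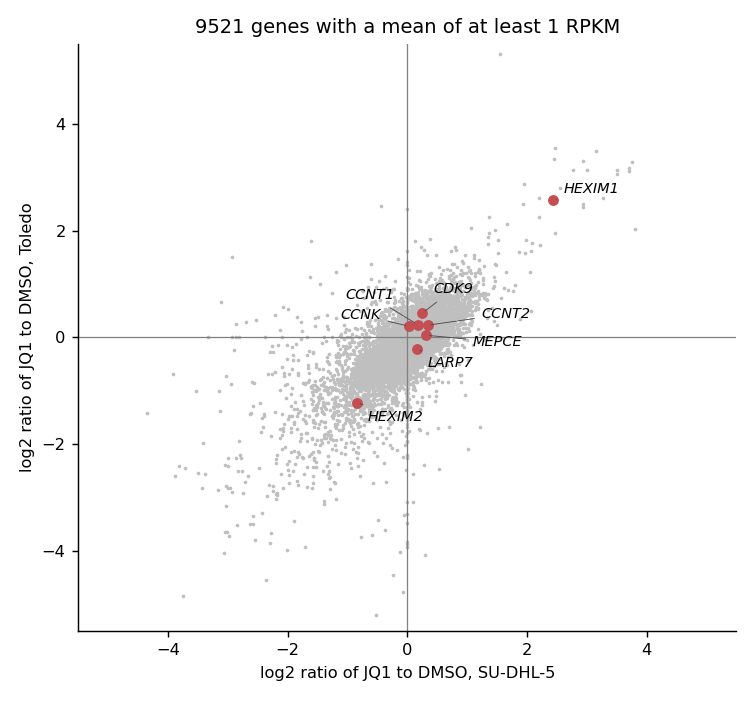
JQ1 to DMSO log2 ratio in SU-DHL-5 (horizontal axis) and in Toledo (vertical axis) for the 9521 genes with a mean of at least 1 RPKM (grey points), with the 8 genes in red. HEXIM1 stands at the upper right edge at 2.43 and 2.57, HEXIM2 at the lower left at -0.84 and -1.22, and the other 6 within the body of the points.

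The balance between the 2 inhibitors differed with JQ1. A ratio of 2 levels within a library needs no scaling between libraries. HEXIM1 over HEXIM2 was 1.03 and 0.869 in the DMSO libraries of SU-DHL-5, and 9.52 and 9.49 in its JQ1 libraries. In Toledo it was 1.61 and 1.27 with DMSO, and 19.9 and 22.4 with JQ1. The share of HEXIM1 in the summed level of both inhibitors was thus 48.6% with DMSO and 90.5% with JQ1 in SU-DHL-5 cells, and 58.8% and 95.5% in Toledo cells. With the levels of the single transcripts of each gene summed in place of the gene table, this share was 29.4% with DMSO and 80.9% with JQ1 in SU-DHL-5 cells, and 38.1% and 90.1% in Toledo cells.

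The summed level of HEXIM1 and HEXIM2 was 8.48 RPKM with DMSO and 25.0 RPKM with JQ1 in SU-DHL-5 cells, and 6.80 and 25.4 RPKM in Toledo cells. With transcripts summed, it was 14.01 and 28.01 RPKM in SU-DHL-5 cells, and 10.5 and 26.9 RPKM in Toledo cells, so that JQ1 over DMSO was 1.999-fold in place of 2.95-fold in SU-DHL-5 and 2.55-fold in place of 3.73-fold in Toledo. Inhibitors were compared next with the subunits that they bind. The sum of HEXIM1 and HEXIM2 over the sum of CCNT1 and CCNT2 was 0.967 and 0.975 in the DMSO libraries of SU-DHL-5, and 2.55 and 2.42 with JQ1. In Toledo it was 0.594 and 0.503 with DMSO, and 1.63 and 1.81 with JQ1. HEXIM1 over CDK9 was 0.159 and 0.163 with DMSO in SU-DHL-5, and 0.720 and 0.766 with JQ1. In Toledo it was 0.136 and 0.127 with DMSO, and 0.594 and 0.571 with JQ1. The groups did not overlap for any of these 3 ratios in either line. The ratio of CCNT1 to CCNT2 was 4.73 with DMSO and 4.19 with JQ1 in SU-DHL-5 cells, and 5.08 and 5.15 in Toledo cells. These are ratios of mRNA per length, and protein was not measured in these files.

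**Figure D4:**
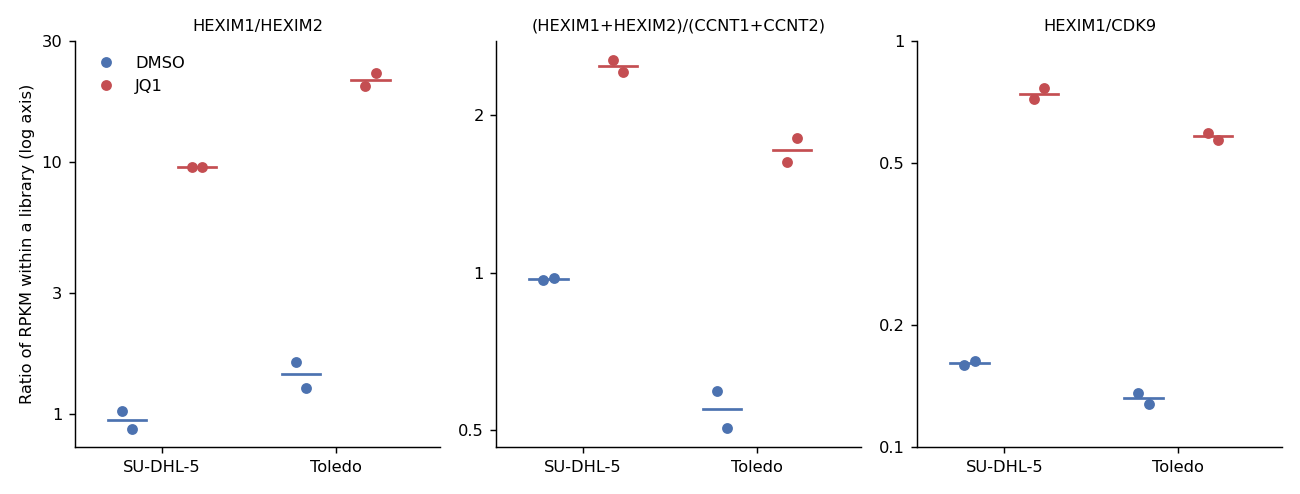
Ratios of RPKM within a library (log axis) for HEXIM1 to HEXIM2, for both inhibitors to both T cyclins, and for HEXIM1 to CDK9, with DMSO in blue and JQ1 in red. Points are libraries and bars the means of 2 libraries; for all 3 ratios, both JQ1 libraries of a line lie above both of its DMSO libraries.

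Levels per length depend on the gene model, which here sets how far values of different genes can be compared. The model of HEXIM1 in the files has 4785 bases, against 3600 exon bases in GENCODE v29, because it begins 1185 bases further upstream. HEXIM2 has 3170 bases against 2038, and CCNK 2777 against 8220. For the same reads, a ratio of JQ1 to DMSO for a single gene depends on this length only through the added 0.1 RPKM. When the transcripts of HEXIM2, most of which are shorter than the gene model, were summed instead, HEXIM1 over HEXIM2 was 0.418 with DMSO and 4.24 with JQ1 in SU-DHL-5 cells, and 0.619 and 9.16 in Toledo cells. HEXIM1 was then below HEXIM2 with DMSO and above it with JQ1 in both lines. Summed in the same way, both inhibitors over both T cyclins came to 1.44 with DMSO and 2.46 with JQ1 in SU-DHL-5 cells. In Toledo cells they came to 0.764 and 1.65. JQ1 over DMSO was then 1.71-fold in place of 2.56-fold in SU-DHL-5 and 2.16-fold in place of 3.13-fold in Toledo. The transcripts of CCNT2 enter these sums, although their reads did not add up to its gene reads in every library.

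Genes on the opposite strand lie over both inhibitor genes and LARP7 in GENCODE v29. In the files' HEXIM1 model, 1154 of 4785 bases are shared with the long noncoding RNA AC142472.1 and 520 with AC138150.1, and 1026 exon bases of HEXIM2 are shared with AC138150.2. LARP7 shares 302 exon bases with AC106864.1. None of these 4 symbols is a row of the gene table. The libraries were stranded, but whether counting used the strand is not given in the sources used here, so reads of HEXIM1, HEXIM2 or LARP7 and of these genes cannot be told apart. Of the other genes, MEPCE overlaps ZCWPW1 (1.16 RPKM on average over all libraries) at its start and CCNK overlaps CCDC85C (0.920 RPKM) at its end, both on the opposite strand, and both were far below the level of MEPCE or CCNK. LARP7 also shares 32 bases at its start with C4orf21 (2.24 RPKM on average over all libraries).

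With DMSO, the libraries of the 2 lines did not overlap for 6 of the 8 genes. Toledo was above SU-DHL-5 for 5 of them, against 42.1% of all genes tested, and below for 1, against 42.2%. MEPCE was 1.86-fold higher in Toledo than in SU-DHL-5, CCNT1 1.45-fold, CCNK 1.37-fold, CCNT2 1.33-fold and CDK9 1.18-fold. HEXIM2 was lower in Toledo, at 0.653-fold. HEXIM1 and LARP7 overlapped between the lines, with means of 4.12 and 3.99 RPKM for HEXIM1 and 20.6 and 20.2 RPKM for LARP7. Each line is 1 sample, so the lines are not replicates of one another.

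With DMSO, the order by level in SU-DHL-5 was CCNK (29.5 RPKM), CDK9 (25.6 RPKM), LARP7, MEPCE (16.6 RPKM), CCNT1 (7.21 RPKM), HEXIM2 (4.36 RPKM), HEXIM1 and CCNT2 (1.52 RPKM). HEXIM2 and HEXIM1 overlapped there, and the other neighbours in this order did not. In Toledo the order was CCNK (40.4 RPKM), MEPCE (31.0 RPKM), CDK9 (30.3 RPKM), LARP7, CCNT1 (10.5 RPKM), HEXIM1, HEXIM2 (2.81 RPKM) and CCNT2 (2.06 RPKM), and only MEPCE and CDK9 overlapped. With JQ1, HEXIM1 stood at the level of LARP7 in SU-DHL-5, where their libraries overlapped, and above LARP7 (17.3 RPKM) in Toledo. These orders hold for the gene table. With transcripts summed and with DMSO, HEXIM2 stood above CCNT1 in SU-DHL-5, at 9.89 against 7.22 RPKM, and above HEXIM1 in Toledo, at 6.55 against 3.99 RPKM. In the same sums CDK9 and LARP7 overlapped with DMSO in SU-DHL-5, MEPCE and CDK9 did not overlap in Toledo, and HEXIM1 with JQ1 lay below LARP7 in SU-DHL-5.

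HEXIM1 and CDK9 have 1 transcript each in the transcript table. HEXIM2 has 9, with 4 different starts, and reads were assigned to them differently in the 2 lines. With DMSO in SU-DHL-5, 87.6% of the 452 HEXIM2 reads were assigned to the 5 transcripts that start at 45161831, and 11.3% to the 1 that starts 934 bases further upstream. With DMSO in Toledo, the shares were 49.8% and 45.8% of 301 reads. By library, the upstream transcript held 25 and 26 reads with DMSO in SU-DHL-5 cells, and 80 and 58 in Toledo cells. With JQ1 it held 10 and 0 reads in SU-DHL-5 cells, and 21 and 0 in Toledo cells. The transcripts of the main start held 184 and 212 reads with DMSO and 110 and 108 with JQ1 in SU-DHL-5, and 53 and 97 with DMSO and 39 and 55 with JQ1 in Toledo. Summed over libraries, the main start held fewer reads with JQ1 in both lines, and the libraries overlapped only in Toledo. A value of 0 in 1 library beside 21 in the other shows how far assignment to transcripts varied between libraries of one sample.

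**Figure D5:**
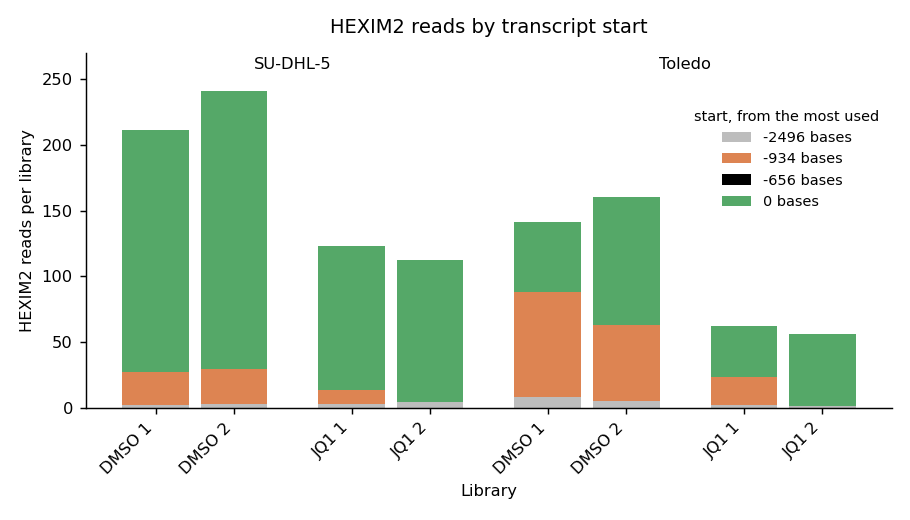
Reads of HEXIM2 in each library (vertical axis), stacked by the start of the transcript they were assigned to, given in bases from the start with most reads. The start 934 bases upstream holds a larger part of the DMSO reads in Toledo than in SU-DHL-5, and every JQ1 library holds fewer HEXIM2 reads than the DMSO libraries of its line.

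Assignment was also uneven for MEPCE. Its transcript MEPCE_1 held 192 and 43 reads in the 2 DMSO libraries of SU-DHL-5, and MEPCE_3 held 0 and 43. The transcript MEPCE_4 held most of the reads of the gene in every condition, from 74.0% to 80.8%. For CCNT1, the transcript CCNT1_2 held 85.7% to 92.4% of reads, and for CCNK, CCNK_2 held 82.3% to 93.7%. LARP7 was divided between LARP7_2, with 49.5% to 69.5% of reads, and LARP7_3, with 27.4% to 48.2%.

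The genes around P-TEFb were taken as 5 lists. In the super elongation complex, which joins P-TEFb to the ELL, AFF and ENL or AF9 proteins, 4 of 10 genes were higher by library order in SU-DHL-5 and 2 were lower, against 41.1% and 37.3% of all genes. In Toledo 3 were higher and 4 lower, against 29.3% and 42.9%, so these shares lay near or below those of all genes. The list's median log2 ratio was 0.01 in SU-DHL-5 cells and -0.07 in Toledo cells, close to that of all genes. ELL2, an elongation factor of this complex, had levels of 2.07 and 1.94 RPKM with DMSO and 4.54 and 4.38 RPKM with JQ1 in SU-DHL-5, and 0.703 and 0.765 RPKM with DMSO and 2.41 and 2.25 RPKM with JQ1 in Toledo. The log2 ratios of ELL2 were 1.11 and 1.55, the highest of the list in each line. AFF3, a scaffold protein of the AFF family, had the lowest, at -1.50 and -0.98, and EAF2, a partner of ELL proteins, had -0.68 and -0.82.

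Of 13 pausing and elongation factors, 6 were higher by library order in each line. Lower by the same rule were 4 in SU-DHL-5 cells and 5 in Toledo cells. Over all genes, 41.1% and 29.3% were higher and 37.3% and 42.9% lower. The median log2 ratio was 0.05 and 0.02. CTR9 and RTF1, subunits of the PAF1 complex and its partner, had values of 0.61 and 0.60 on the log2 scale in SU-DHL-5 cells and of 0.67 and 0.72 in Toledo cells. NELFA, a subunit of the negative elongation factor NELF, had -0.73 and -0.68, and NELFCD, another subunit, had -0.47 and -0.85. NELFE was also lower in both lines, at -0.29 and -0.48, and NELFB overlapped in both.

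Among 18 genes that recruit P-TEFb or release it from 7SK, 8 were higher by library order and 9 lower in SU-DHL-5 cells, against 41.1% and 37.3% of all genes. In Toledo cells 4 were higher and 5 lower, against 29.3% and 42.9%. The median log2 ratio was -0.02 in SU-DHL-5 cells and 0.00 in Toledo cells. Of the BET proteins, BRD2 had a log2 ratio of 0.72 in SU-DHL-5 cells and 0.35 in Toledo cells, and BRD3 had 0.14 and 0.35. DDX21, a helicase, had the lowest value in SU-DHL-5 at -0.48, and SRSF1, a splicing factor, the lowest in Toledo at -0.62. JMJD6, a dioxygenase, was lower by library order in both lines, at -0.41 and -0.53.

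In the list of 7SK RNA and the proteins that bind released 7SK, the 6 protein genes had log2 ratios below 0 in both lines. RN7SK, the gene of 7SK RNA itself, was listed at 0 in all 8 libraries. The 6 protein genes had a mean of at least 1 RPKM, and 6 of 6 were lower by library order in each line, against 37.3% of all genes in SU-DHL-5 cells and 42.9% in Toledo cells. Their median log2 ratio was -0.31 in SU-DHL-5 cells and -0.33 in Toledo cells, and none reached 1.5-fold. HNRNPA1, an abundant RNA-binding protein, had levels of 1233 and 1277 RPKM with DMSO and 997 and 1039 RPKM with JQ1 in SU-DHL-5 cells, and its log2 ratio in Toledo cells, -0.46, was the lowest there. DHX9, a helicase, had the lowest in SU-DHL-5 at -0.36. The values nearest to 0 were those of HNRNPA2B1 in SU-DHL-5, at -0.09, and of HNRNPR in Toledo, at -0.27.

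Of 13 other transcriptional kinases and cyclins, 10 were higher by library order and 0 lower in SU-DHL-5 cells, against 41.1% and 37.3% of all genes. In Toledo cells 7 were higher and 2 lower, against 29.3% and 42.9%. The list had a median log2 ratio of 0.26 and 0.18. CDK12 and CDK13, the partners of cyclin K, were higher in both lines, with log2 ratios of 0.27 and 0.36 for CDK12 and 0.38 and 0.48 for CDK13. CDK8 had the highest value in SU-DHL-5, at 0.66, and CDK10 in Toledo, at 0.62. The lowest were CDK11A in SU-DHL-5 at -0.08 and CCNL1 in Toledo at -0.16, both with overlapping libraries. CDK11A and CDK11B are near-identical copies between which reads could be divided either way.

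The genes whose pattern over the 8 libraries was nearest to that of HEXIM1 were HIST1H2AM, FAM222A, HIST1H2BC, HIST1H2BG and SERTAD1. Nearness is the distance between log2(RPKM + 0.1) values centred on the mean of each gene, from 0.821 for HIST1H2AM to 1.25 for SERTAD1. FAM222A had 0.826 and 0.415 RPKM with DMSO and 3.13 and 2.39 RPKM with JQ1 in SU-DHL-5, and log2 ratios of 1.99 and 1.83. SERTAD1, which binds the cell cycle kinase CDK4, stood at log2 ratios of 1.37 in SU-DHL-5 cells and 2.26 in Toledo cells. HIST1H2BC had 1.89 and 3.50 RPKM with DMSO and 16.9 and 20.9 RPKM with JQ1 in SU-DHL-5, and log2 ratios of 2.77 and 3.14. The histone genes have near-identical copies, so their reads are uncertain, and HIST1H2AM rests on only 13 reads with DMSO in SU-DHL-5 cells and 20 in Toledo cells.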

How the data were processed

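The authors sequenced paired reads of stranded mRNA libraries and deposited gene and transcript tables of RPKM values, computed from trimmed reads. The submitters' processing notes name GRCh38, hg38 and CASAVA 2.0. The aligner, counter and annotation are not given in the sources used here. Positions are those of the files, counted from 1.

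No reads were processed here. Mapped reads per library were taken as the total that most often made RPKM times length a whole number for genes under 8000 bases, and each gene's length as the smallest from 100 to 40000 bases that made all its values whole within 0.001 reads. This gave whole reads for 14942 of 14944 genes with a value (99.99%). The recovery was tested on simulated data. Of the members' 28 transcripts, 1 was at 0 in all libraries. Recovered transcript reads summed to gene reads for 7 of 8 members. The single transcripts of CCNT2 are not described, but their summed RPKM enters the ratios of both inhibitors to both T cyclins with transcripts summed.

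Ratios are log2((JQ1 + 0.1)/(DMSO + 0.1)) of mean RPKM. Fold changes are on this scale and understate changes of low genes. Exact binomial intervals (95%) were computed from recovered reads and library totals, without the pseudocount, and hold counting error alone. PCR copies are counted as reads, and whether pairs counted once is not given. Genes needed a mean of at least 1 RPKM over 8 libraries. With 1 sample per condition no test was made, and calls are by library order or by fold (1.5 and 2). Members and lists were chosen with earlier results of these data known. The genes named from lists were those past 1.5-fold in the same direction in both lines without overlap of libraries, the highest and lowest of each list, and the 5 nearest to HEXIM1. JMJD6, BRD3, NELFB, NELFE, CDK12, CDK13, CDK11B and the HIST genes above HEXIM1 were singled out after their values were seen. Alternatives varied the pseudocount, filter, scaling, table, library and length correction. Protein sequences were not used here, and not every gene of the lists is reported by name. The software was matplotlib 3.10.9, scipy 1.17.1, pandas 2.3.3 and numpy 2.4.6 under Python 3.11.15.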

Additional observations from a re-analysis of the deposited data

Results flagged for a closer look

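LARP7 differed between the lines. In SU-DHL-5 the JQ1 libraries lay above those of DMSO, with a log2 ratio of 0.15 (counting interval 0.06 to 0.25), and in Toledo both lay below, with a log2 ratio of -0.22 (counting interval -0.32 to -0.12). With 1 sample per condition, the difference between the lines was not tested. Centred on genes of like length, the Toledo value was -0.11. No group had enough samples to look for a single outlying one.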

How the results depend on the processing

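The 8 genes, the ratios between them and the lists gave 236 values under alternative settings. Of these, 209 were counted as staying near the reported value (for counts, within 1.5 times) and 27 as moving away. This division did not follow the gap between libraries for every log2 ratio. HEXIM2 in SU-DHL-5 went from -0.84 to -0.66 under a pseudocount of 1 RPKM and was counted as near. Its libraries differed by log2 ratios of 0.08 with DMSO and 0.04 with JQ1. No JQ1 to DMSO log2 ratio called by library order changed sign. The order of HEXIM1 and HEXIM2 with DMSO in Toledo did turn, from a ratio of 1.44 to 0.619 with transcripts summed. Under a pseudocount of 1 RPKM, the ratio of HEXIM1 on the log2 scale was 2.21 in SU-DHL-5 cells and 2.34 in Toledo cells and that of HEXIM2 was -0.83 in Toledo, so that 0 of the 8 genes were then at least 2-fold lower in Toledo. Low values weigh less under a larger pseudocount. Centred on genes of like length, the log2 ratio was -0.11 for LARP7, 0.16 for MEPCE, 0.58 for CDK9 and 0.31 for CCNK in Toledo, and 0.12 for CCNT2 in SU-DHL-5. Library 1 alone gave 0.46 for CCNT1 and 0.54 for CCNT2 in Toledo, and library 2 alone 0.037 and -0.087. Leaving out each library in turn, a choice made after seeing the data, gave 0.16 to 0.35 for CDK9 in SU-DHL-5, 0.075 to 0.42 for CCNT1 in Toledo and 0.10 to 0.32 for CCNK in Toledo. CCNT2 in Toledo was 0.056 without the first JQ1 library. With transcripts summed, HEXIM1 over HEXIM2 was 0.418 with DMSO and 4.24 with JQ1 in SU-DHL-5 cells and 0.619 and 9.16 in Toledo cells, and both inhibitors over both T cyclins with DMSO came to 1.44 in SU-DHL-5 cells and 0.764 in Toledo cells, since summed transcripts count length differently. Divided by the median ratio of all genes (1.01 in SU-DHL-5 cells and 0.954 in Toledo cells), the median of the pausing and elongation factors in Toledo was 0.085. The cause of the other changes was not tested.

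No paired analysis was possible with 1 sample per condition, and the sources used here do not say whether equally numbered libraries belong together. The 2 libraries of a sample differed beyond counting error for 7 of 32 pairs of member values, against 27.8% of all genes' pairs, so counting intervals are narrower than the error between libraries. No difference has a replicate to be set against, and HEXIM2 and CCNT2 rest on the fewest reads.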

Other observations

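The genes around HEXIM1 and HEXIM2 were examined within 100 kb on each side, a window chosen after the members' values were seen. Of 10 other genes listed there, 6 had a mean of at least 1 RPKM. PLCD3, a phospholipase C gene upstream of HEXIM1 on the opposite strand, had levels of 1.31 and 0.987 RPKM with DMSO and 3.40 and 3.56 RPKM with JQ1 in SU-DHL-5, and 0.507 and 0.445 RPKM with DMSO and 2.03 and 1.84 RPKM with JQ1 in Toledo. Its log2 ratios were 1.52 and 1.82. FMNL1, a formin gene downstream of HEXIM2, had levels of 26.9 and 23.7 RPKM with DMSO and 6.36 and 5.68 RPKM with JQ1 in SU-DHL-5, and 35.3 and 35.9 RPKM with DMSO and 22.0 and 23.1 RPKM with JQ1 in Toledo. Its log2 ratios were -2.06 and -0.66. MAP3K14, a kinase of the NF-κB pathway, was higher by library order in both lines, at 0.34 and 0.76, as was DCAKD, at 0.35 and 0.41. Both ACBD4, between PLCD3 and HEXIM1, and NMT1 had libraries that overlapped in one line, with log2 ratios of -0.10 and 0.24 for ACBD4 and -0.09 and -0.07 for NMT1. Differences in both directions thus lay within the same window.

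Of 29 genes with HIST symbols and a mean of at least 1 RPKM, 23 were at least 2-fold higher with JQ1 in both lines. Over all 9521 genes tested, HIST genes among them, 67 (0.704%) were. The HIST count was made after the values were seen, and reads of near-identical histone copies are uncertain.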
